A study of Mus musculus with 8 samples.

Results

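Lipid storage and lipid uptake genes, 10 in all, are described here across 8 libraries of ribosome-bound RNA from mouse lung endothelium. They are 10 of the 23238 gene symbols in the deposited tables. The genes are Hilpda, G0s2, Pnpla2, Mgll and Plin2, which act at the lipid droplet, and Lpl, Gpihbp1, Cd36, Fabp4 and Fabp5, which act in the uptake of fatty acids from blood. They were chosen by symbol with their levels in both groups already known, so their levels and fold changes are given as a description, without a test.

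The study set 4 libraries from Sox17-deleted hypoxic mice against 4 from control normoxic mice, all of strain C57BL/6J. The hypoxic mice had the genotype Cdh5-CreERT2;Sox17fl/fl;RPL22tm1.1Psam and spent 3 weeks in hypoxia from 10 weeks of age. The controls had the genotype Cdh5-CreERT2; RPL22tm1.1Psam, without the floxed Sox17 allele, and stayed in room air for the same time. Both groups were given tamoxifen, which activates the recombinase, in doses of 2 mg over 5 days from the age of 8 weeks. The recombinase is driven by the Cdh5 promoter, active in endothelial cells, and turns on the RPL22 allele that tags ribosomes with haemagglutinin, so that endothelial ribosomes can be pulled from whole lung with their RNA. Genotype and oxygen changed together, so their effects cannot be told apart. The labels do not say whether a library was made from a single mouse. The deposited tables of hypoxic libraries 2, 3 and 4 carry names with a shared stem, and whether these 3 share a mouse or a preparation is not stated there or in the labels.

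A lipid droplet is a store of triglyceride wrapped in coat proteins. PNPLA2, also called adipose triglyceride lipase, takes the first fatty acid off triglyceride, LIPE acts on the diglyceride that remains, and MGLL splits the last monoglyceride. HILPDA and G0S2 are small proteins that bind and inhibit PNPLA2, and HILPDA is known as a gene product induced by hypoxia. At the capillary wall, GPIHBP1 carries lipoprotein lipase (LPL) to the luminal face, where the enzyme frees fatty acids from circulating lipoproteins. CD36 takes fatty acids into the cell and FABP4 and FABP5 bind them in the cytosol. In mouse lung, LPL and GPIHBP1 are known as genes of general capillary endothelium.

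Library totals lay between 7000313 and 12913304 counts in the Sox17-deleted hypoxic group and between 10567561 and 11884614 in the control group. A floor of 3 counts thus stood for 0.232 to 0.429 counts per 1000000 (CPM) in the hypoxic libraries and 0.252 to 0.284 CPM in the controls. Between 8019 and 8708 genes had a count in a hypoxic library and between 9821 and 10429 in a control library, so fewer genes were seen in the hypoxic group. Sox17 itself had 473, 31, 6 and 41 counts in hypoxic libraries 1 to 4 and 3072, 2591, 2442 and 2442 in the controls. Whether the counted 3′ end lies in the deleted part is not given. All 14 endothelial markers looked for (Pecam1, Cdh5 and Ramp2 among them) had counts. The edgeR quasi-likelihood test called 0 of 8282 genes (0%) at an adjusted p under 0.05, with 424 (5.12%) at an unadjusted p under 0.05, and limma-voom called 44 (0.531%). Sox17 was among the 8282 and was thus not called by edgeR, at a log2 fold change of −4.39 (SE 1.01). A lack of edgeR calls is therefore not read as a lack of change. DESeq2, which was not restricted to these genes, called 473 of 9352 (5.06%), and 235 of the 473 lay outside the 8282.

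Within the control group Hilpda was the most abundant of the 10 transcripts in 4 of 4 libraries and ranked 36 among all symbols by mean CPM. The kit sequences a single tag near the 3′ end of each transcript, so CPM were compared between genes without dividing by length. Mean control levels then ran from Hilpda (1828 CPM) through Lpl (1346), Gpihbp1 (1213), Cd36 (808), Pnpla2 (579) and Mgll (518) to Fabp4 (79.2), Plin2 (35.8), Fabp5 (27.4) and G0s2 (10.3). In the hypoxic group the order of mean CPM was Mgll (1314), Gpihbp1 (1101), Lpl (610.2), Cd36 (544), Hilpda (422), Pnpla2 (338), Fabp4 (107), Plin2 (53.0), Fabp5 (35.8) and G0s2 (9.11). Neighbours in either order overlapped in range over the 4 libraries, with a single exception in each. In the hypoxic group the lowest Pnpla2 library (184 CPM) lay above the highest Fabp4 library (173 CPM), and in the controls the lowest Mgll library (316 CPM) lay above the highest Fabp4 library (112 CPM). The 6 abundant genes and the 4 low ones were thus apart in both groups.

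Of the 10 genes, 2 did not overlap between the groups, Hilpda (lower) and Mgll (higher), where 6.59% of the 8282 genes tested did not overlap (4.96% lower and 1.63% higher). The share was 9.75% among the 1641 genes whose mean CPM reached 7 on the log2 scale. A fold change below 0 was found for 6 of the 10 genes and for 50.4% of all genes tested (46.1% of those 1641). The median log2 fold change was −0.13 over the 10 genes and −0.01 over all genes tested. Since the genes were chosen on this contrast, nothing is read from these shares.

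Hilpda encodes the droplet-bound inhibitor of PNPLA2 (chromosome 6, 29272488 to 29275446, plus strand, GRCm38). Its level was 518, 191, 436 and 542 CPM in Sox17-deleted hypoxic libraries 1 to 4, against 1739.8, 1473, 1965 and 2133 CPM in control libraries 1 to 4. The highest hypoxic library thus lay far below the lowest control library. Means were 422 ± 160.5 CPM in the hypoxic group and 1828 ± 286 CPM in the controls (SD, n = 4 each), a ratio of 0.231. The fitted log2 fold change was −2.08 (SE 0.36). Hilpda ranked 405 among all symbols in the hypoxic group, against 36 in the controls.

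Mgll encodes the enzyme of the last step of triglyceride breakdown, which also degrades the endocannabinoid 2-arachidonoylglycerol (chromosome 6, 88724412 to 88828360, plus strand, GRCm38). It had 1195, 1121, 1685 and 1254 CPM in the hypoxic libraries, against 316, 593, 544 and 618 CPM in the control libraries. Every hypoxic library was above every control library. The means were 1314 ± 253 CPM with Sox17 deletion and hypoxia and 518 ± 138 CPM in the controls (SD, n = 4 each), and the log2 fold change was 1.38 (SE 0.33). Mgll was the most abundant of the 10 genes in hypoxic libraries 3 and 4, Lpl in library 1 and Gpihbp1 in library 2. The annotated span of Mgll overlaps Gm44005, Gm43999 and Gm44001 on the same strand and Gm26588 and Gm43937 on the other. None of these is among the counted symbols, and whether their reads went to Mgll is not given.

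**Figure D1:**
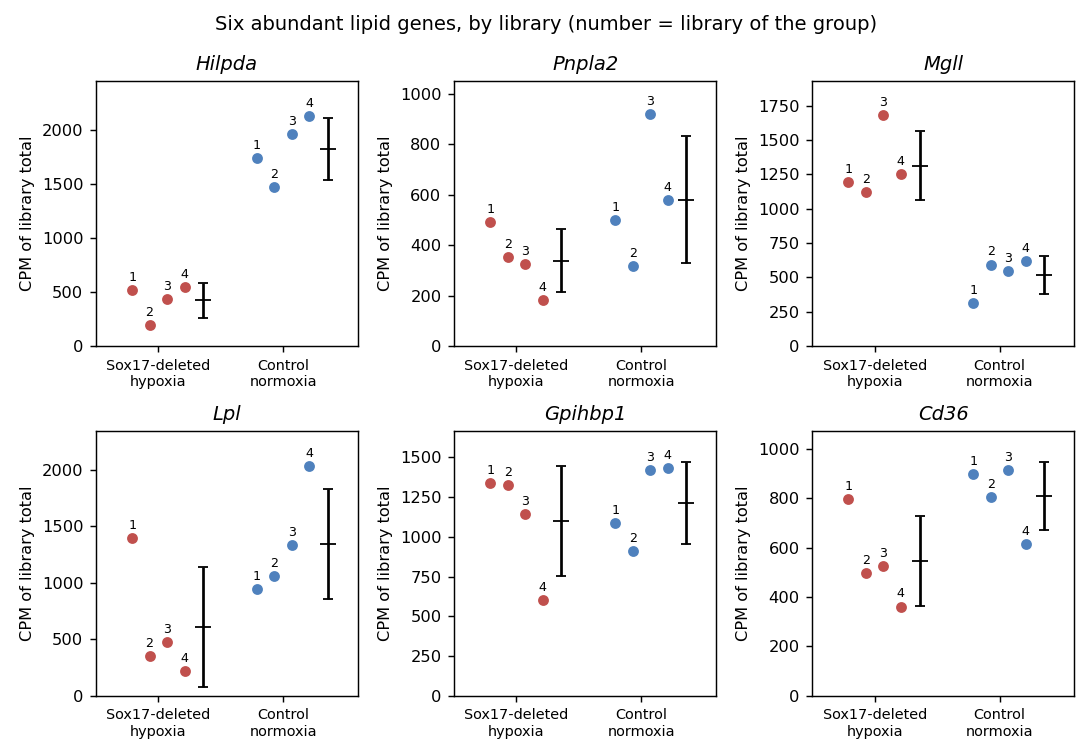
CPM of library total for the 6 abundant genes in each library, Sox17-deleted hypoxia in red and control normoxia in blue, with the library number above each point and the mean ± SD (n = 4) in black. Hilpda stays at or below 542 CPM in the hypoxic libraries and at or above 1473 CPM in the controls, Mgll lies the other way round, and the other 4 genes overlap.

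The bases before the starts of Hilpda and Mgll are shown because these are the genes whose groups did not overlap. RefSeq (GRCm38.p6) lists promoter windows for 6 of the 10 genes, G0s2, Plin2, Cd36, Hilpda, Mgll and Pnpla2, in 8 windows, since Hilpda and Mgll have a second start. The 250 bases before each start were searched on both strands for the core of the hypoxia response element, ACGTG or GCGTG. The first of these overlaps its own reverse complement in CACGTG, and such a stretch counts as a match on each strand. Capitals mark a match.
Hilpda, before the first start, chr6:29272238-29272487, plus strand: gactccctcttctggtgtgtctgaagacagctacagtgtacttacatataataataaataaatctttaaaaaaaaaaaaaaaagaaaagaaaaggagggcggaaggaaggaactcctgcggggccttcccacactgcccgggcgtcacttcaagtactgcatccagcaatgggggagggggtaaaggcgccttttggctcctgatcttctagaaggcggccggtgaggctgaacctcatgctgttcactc
Mgll, before the first start, chr6:88724162-88724411, plus strand: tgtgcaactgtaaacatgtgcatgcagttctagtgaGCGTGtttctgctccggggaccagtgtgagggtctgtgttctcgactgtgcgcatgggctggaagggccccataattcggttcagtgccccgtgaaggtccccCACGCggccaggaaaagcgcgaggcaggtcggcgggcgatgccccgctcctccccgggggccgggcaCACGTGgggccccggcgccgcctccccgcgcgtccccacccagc

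Over all 32851 windows of that length in the table, 38.6% held such a match. The window before the first Hilpda start held 0 and that before the first Mgll start held 4 matches. Before the second Hilpda start (chr6:29272376-29272625), 3 matches were found, at 111, 43 and 8 bases before that start, and they lie within the gene as GENCODE annotates it.
Hilpda site 1, chr6:29272505-29272529, plus strand: accgcgagccGCGTGctttccgtga
Hilpda site 2, chr6:29272573-29272597, plus strand: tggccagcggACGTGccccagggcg
Hilpda site 3, chr6:29272608-29272625, plus strand: ggttcggtacGCGTGcgc

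The window before the second Mgll start (chr6:88724454-88724703) held 7 matches, those of G0s2 and Plin2 1 each, and those of Cd36 and Pnpla2 0. A match was thus present in 5 of the 8 windows, against 38.6% of all windows, and for 4 of the 6 genes with a window. Among these were Hilpda, lower in level and matched only before its second start, and Mgll, higher in level. The core motif of SOX proteins, ACAAT, was found in the windows of Cd36 (2 matches) and Plin2 (1 match), against 27.7% of all windows. The direct repeat bound by PPAR receptors, AGGTCA repeated in the same direction after 1 base, was found in 0 of the 8 windows and in 0.0335% of all windows. These are matches of letters only, and no binding was measured.

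Pnpla2, the triglyceride lipase gene that HILPDA inhibits (chromosome 7, 141455198 to 141460743, plus strand), had 491, 353, 325 and 184 CPM in hypoxic libraries 1 to 4 and 502, 317, 919 and 580.2 CPM in control libraries 1 to 4. The groups overlapped, with only hypoxic library 4 below all controls. The log2 fold change was −0.74 (SE 0.40).

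G0s2, the other inhibitor gene of that lipase (chromosome 1, 193272161 to 193273217, minus strand), was close to the floor in libraries 2 and 3 of each group. It had 347, 2, 6 and 95 counts in hypoxic libraries 1 to 4 and 38, 2, 0 and 444 counts in control libraries 1 to 4. Libraries 1 and 4 of each group carried nearly all of its counts, most of them in library 1 (hypoxic) and library 4 (control). The groups overlapped. Its log2 fold change of −0.15 (SE 2.33) was 2.82 without control library 4 and −1.67 without hypoxic library 1, so no direction was detectable. G0s2 lies wholly inside the annotated span of Lamb3 on the other strand, and whether counting used strand is not given. Lamb3 had 0, 414, 0 and 1 counts in the hypoxic libraries and 0, 25, 49 and 115 counts in the controls.

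Plin2, the gene of the droplet coat protein perilipin 2 (chromosome 4, 86648386 to 86670060, minus strand), had 71.3, 76.5, 49.9 and 14.2 CPM in the hypoxic libraries and 67.4, 33.5, 18.4 and 23.7 CPM in the controls. Hypoxic libraries spread over the whole range of the controls and beyond it at both ends. The log2 fold change was 0.57 (SE 1.13). The last 300 bases of its transcript matched Gm12551 over 280 bases at 93.9% identity, so its counts are uncertain if reads with several matches were shared out. For none of the other 9 genes did GENCODE M21 hold a transcript of another gene with at least 90% identity over 100 bases or more of that stretch.

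**Figure D2:**
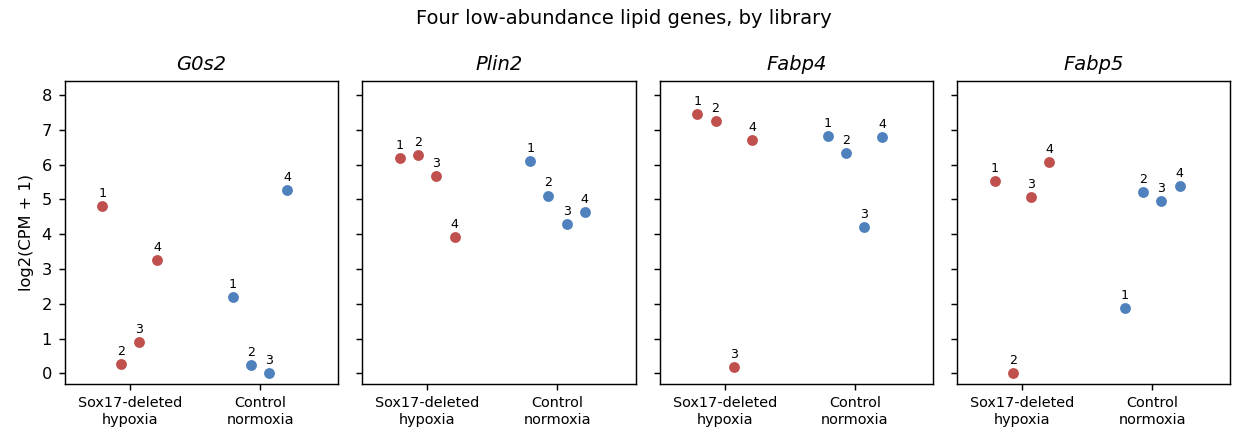
Levels of the 4 low-abundance genes as log2(CPM + 1) in each library, Sox17-deleted hypoxia in red and control normoxia in blue, with the library number above each point. For each gene the groups overlap, and single libraries lie at or near 0 in G0s2, Fabp4 and Fabp5.

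Lpl, the gene of the lipase that works at the capillary lumen (chromosome 8, 68880491 to 68907448, plus strand), had 1394, 354, 474 and 218 CPM in hypoxic libraries 1 to 4. Control libraries 1 to 4 had 948, 1062, 1338 and 2037 CPM. Hypoxic library 1 lay within the control range and the other 3 hypoxic libraries lay below it. Means were 610.2 ± 533 CPM in the hypoxic group and 1346 ± 489 CPM in the controls (SD, n = 4 each), with a log2 fold change of −1.10 (SE 0.51). It was −1.86 without hypoxic library 1 and −0.61 with hypoxic libraries 2 to 4 summed to 1, so the size depends on library 1. That library also had the most Sox17 of the hypoxic libraries, at 36.6 CPM against 0.857 to 3.67 CPM in the others. It had the highest sum of general capillary markers of its group too (6250 CPM against 2999 to 4582 CPM). Its name lies outside the stem that hypoxic libraries 2, 3 and 4 share. Whether its Lpl level goes with any of these traits was not tested.

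Gpihbp1, which encodes the carrier of that lipase (chromosome 15, 75596628 to 75599481, plus strand), had 1337, 1324, 1142 and 602 CPM in the hypoxic libraries and 1084, 908, 1424 and 1435 CPM in the controls. All hypoxic libraries but library 4 lay inside the control range. Its log2 fold change of −0.11 (SE 0.33) was 0.11 without hypoxic library 4, so no direction was detectable. Enzyme and carrier were therefore not at the same ratio in all libraries. There were 1.04, 0.268, 0.415 and 0.363 Lpl counts per Gpihbp1 count in hypoxic libraries 1 to 4, and 0.874, 1.17, 0.940 and 1.42 in control libraries 1 to 4. Hypoxic library 1 again sat among the controls and the other 3 below them.

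Cd36, which encodes the fatty acid receptor (chromosome 5, 17781690 to 17888801, minus strand), had 796, 495, 526 and 361 CPM in the hypoxic libraries, against 899, 806, 913 and 613 CPM in the controls. Hypoxic libraries 2, 3 and 4 lay below all controls and library 1 did not. The means were 544 ± 182 CPM in the hypoxic group and 808 ± 138 CPM in the control group (SD, n = 4 each), with a log2 fold change of −0.54 (SE 0.33). With hypoxic library 1 left out, 4 of the 10 genes had no overlap, Lpl and Cd36 joining Hilpda and Mgll, where 14.0% of all genes tested had none. With 3 libraries against 4 overlap is rarer by construction, and nothing is read from this count.

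The cytosolic carriers were less abundant and less even. Fabp4, which encodes the adipocyte-type carrier also made by capillary endothelium (chromosome 3, 10204088 to 10208576, minus strand), had 2233, 1418, 1 and 1162 counts in the hypoxic libraries and 1179, 872, 203 and 1294 counts in the controls. Hypoxic library 3 had a single count while the other 3 had over 1000. Fabp5, which encodes the epidermal-type carrier (chromosome 3, 10012548 to 10016607, plus strand), had 580, 0, 226 and 738 counts in the hypoxic libraries and 28, 402, 346 and 488 counts in the controls. The libraries low in Fabp4 (hypoxic 3, control 3) were not those low in Fabp5 (hypoxic 2, control 1). The log2 fold changes of 0.39 (SE 1.13) for Fabp4 and 0.42 (SE 1.74) for Fabp5 were smaller than their errors.

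The spread of these genes within a group can be set beside that of other genes of like level. Among the 300 tested genes whose mean CPM reached 9 on the log2 scale, the median coefficient of variation was 39.0% in the hypoxic group and 16.4% in the controls. In hypoxic libraries Mgll (19.3%), Gpihbp1 (31.3%), Cd36 (33.5%) and Hilpda (38.0%) were below that median, and in controls Hilpda alone was (15.7%, with Cd36 at 17.1%, Gpihbp1 at 21.5% and Mgll at 26.7%). Lpl varied more, by 87.3% in hypoxic and 36.3% in control libraries. Pnpla2 varied by 37.2% in hypoxic and 43.4% in control libraries, beside medians of 50.6% (hypoxic) and 27.9% (control) for the 1341 genes between 7 and 9 on that scale. Fabp4 varied by 71.8% in hypoxic and 55.3% in control libraries, beside medians of 75.7% (hypoxic) and 46.4% (control) for the 2064 genes from 50 CPM up to 7 on the log2 scale. Fabp5 varied by 77.2% in hypoxic and 62.6% in control libraries and Plin2 by 53.5% in hypoxic and 61.5% in control libraries, beside medians of 115.7% (hypoxic) and 72.3% (control) for the 2558 genes of 20 to 50 CPM. In hypoxic libraries these 3 low genes thus varied less than the median gene of like level. G0s2, the other low gene, varied by 136% in hypoxic and 176% in control libraries. Its mean of 9.70 CPM lay below the lowest of these classes, so no median is set beside it.

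All 10 genes together took 6046, 4064, 4671 and 3355 CPM in hypoxic libraries 1 to 4 and 5673, 5308, 7168 and 7628 CPM in control libraries 1 to 4. These totals overlapped. Hilpda made up 4.70% to 16.2% of the counts of the 10 genes in hypoxic libraries, against 27.4% to 30.7% in controls. Mgll made up 19.8% to 37.4% in hypoxic libraries, against 5.56% to 11.2% in controls. The other abundant genes overlapped in share. Lpl made up 6.51% to 23.1% in the hypoxic group and 16.7% to 26.7% in the controls, and Gpihbp1 18.0% to 32.6% in the hypoxic group and 17.1% to 19.9% in the controls. Pnpla2 made up 5.48% to 8.68% in the hypoxic group and 5.97% to 12.8% in the controls. The share of Cd36 was 10.8% to 13.2% in the hypoxic group and 8.04% to 15.9% in the controls.

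**Figure D3:**
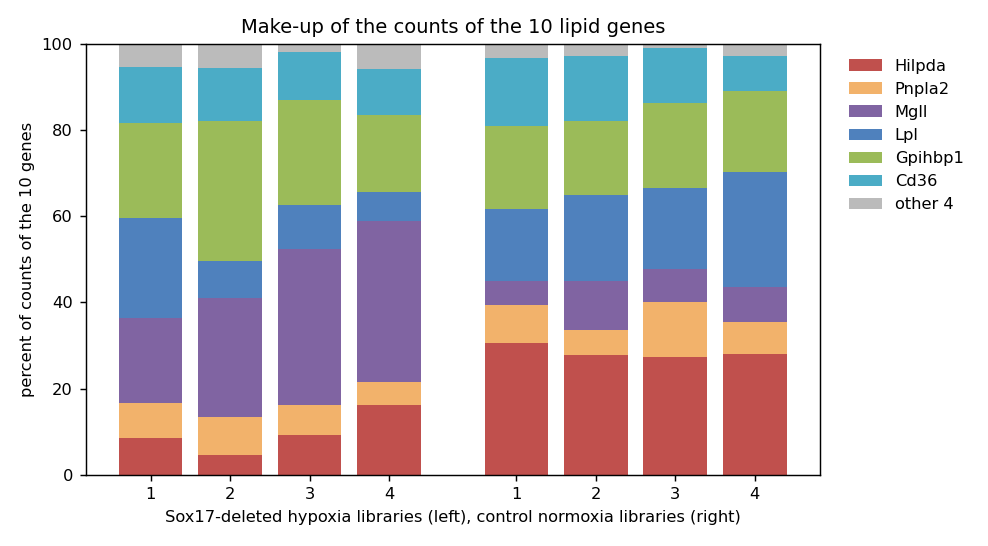
Percent of the summed counts of the 10 genes that each gene takes in a library, Sox17-deleted hypoxic libraries 1 to 4 on the left and control libraries 1 to 4 on the right. The Hilpda part reaches at most 16.2% in hypoxic libraries and at least 27.4% in controls, while the Mgll part is at least 19.8% in hypoxic libraries and at most 11.2% in controls.

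A ratio of counts within a library does not depend on how libraries are scaled. Mgll counts per Hilpda count were 2.31, 5.87, 3.86 and 2.31 in hypoxic libraries 1 to 4, against 0.181, 0.403, 0.277 and 0.290 in control libraries 1 to 4. The lowest hypoxic ratio was above 1 and the highest control ratio below 1. Since Mgll was higher and Hilpda lower without overlap, these ratios had to separate, and they add no further evidence. Hilpda counts per count of its target Pnpla2 were 1.06, 0.541, 1.34 and 2.95 in the hypoxic libraries and 3.47, 4.65, 2.14 and 3.68 in the controls. These overlapped through hypoxic library 4 and control library 3.

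**Figure D4:**
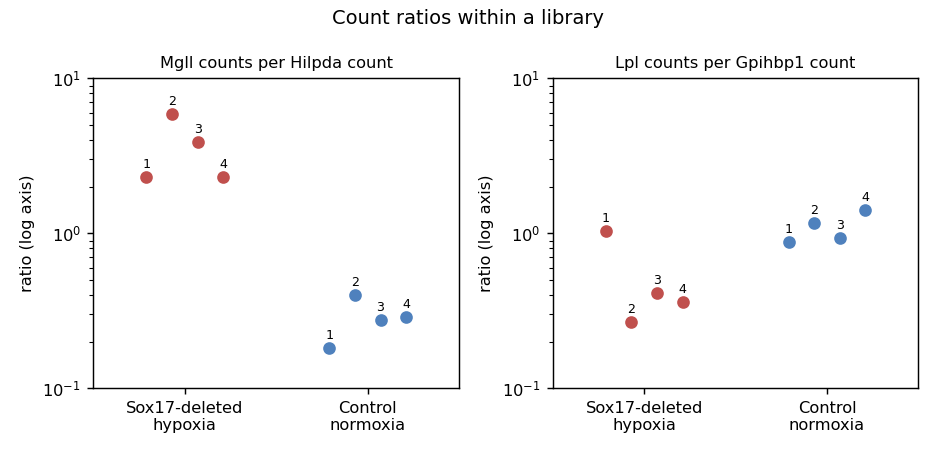
Counts of Mgll per Hilpda count (left panel) and of Lpl per Gpihbp1 count (right panel) in each library on log axes, Sox17-deleted hypoxia in red and control normoxia in blue, with library numbers. The Mgll ratios are 2.31 to 5.87 in hypoxic libraries and 0.181 to 0.403 in controls, and the Lpl ratio of hypoxic library 1 lies among the controls.

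Several of the 10 genes had their highest or lowest hypoxic level in the same library. Hypoxic library 1 was the highest of its group for 6 genes (G0s2, Pnpla2, Lpl, Gpihbp1, Cd36 and Fabp4), and hypoxic library 4 the lowest for 5 (Pnpla2, Plin2, Lpl, Gpihbp1 and Cd36). Summed endothelial markers were also highest in hypoxic library 1 (13797 CPM) and lowest in library 4 (8786 CPM). Summed general capillary markers did the same (6250 and 2999 CPM). The share over all genes tested is not given, so nothing is read from these counts. Likeness of profiles was measured as the mean absolute difference of log2(CPM + 1), each gene centred on its mean over the 8 libraries. Among pairs of the 10 genes it was smallest for Pnpla2 with Gpihbp1 (0.31), Pnpla2 with Cd36 (0.34) and Gpihbp1 with Cd36 (0.35). No median over other genes is given for these pairs. Among 1583 other genes whose mean CPM reached 7 on the log2 scale, the nearest to Hilpda were Map3k3 (0.30), Arhgap31 (0.35) and Hoxa5 (0.38), where the median gene stood at 1.17. Nearest to Mgll were Rplp2 (0.25), Csrp1 (0.26) and Sema3f (0.26), with a median of 0.82 over all candidates. For Lpl they were Tcn2 (0.28), Acer2 (0.35) and Klhl5 (0.39), with a median of 1.01.

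Markers of endothelium and of other lung cells were summed in each library to set beside these levels. In bulk RNA, fewer cells of a type and less RNA per cell cannot be told apart. The 14 endothelial markers summed to 8786 to 13797 CPM in hypoxic libraries and 13262 to 14320 CPM in controls, with hypoxic library 4 at the low end (exact permutation p = 0.0857, adjusted p = 0.110). Those of general capillaries (8 genes, none of them among the 10) summed to 2999 to 6250.5 CPM in the hypoxic group and 8131 to 9382 CPM in the controls, without overlap (exact two-sided permutation p = 0.0286, below which 4 libraries a group cannot go, and adjusted p = 0.0857 over 9 marker lists). All 7 tested markers of that list had lower levels, including Cd93, at 1908 ± 954 CPM in hypoxic and 3484 ± 549 CPM in control libraries. Their part in the lower Hilpda, Lpl and Cd36 levels was not tested. Markers of aerocytes, the other capillary type, summed to 1913 to 6173 CPM in hypoxic and 4506 to 5749 CPM in control libraries (exact permutation p = 0.286, adjusted p = 0.286), with Emp2 at 1092 ± 471 CPM in hypoxic and 1315 ± 150.4 CPM in control libraries. The aerocyte list was split, with 4 markers higher and 6 lower of 10 tested. Fibin, Chst1 and Cyp4b1 were lower without overlap. So were Plvap, Clec14a and Tmem100 of the general capillary list, where 6.59% of all genes tested did not overlap.

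Levels were also scaled to the summed endothelial markers in place of the library total, a choice made after seeing the data. That sum differed little between the groups (ratio of hypoxic to control means 0.876), so this scaling could not undo gaps as large as those of Hilpda and Mgll. Its single markers were not level, with 5 higher and 9 lower of 14, and Erg, Eng and S1pr1 lower without overlap. Egfl7 was higher (2812 CPM in hypoxic and 1883 CPM in control libraries). Ramp2 was lower (3215 CPM in hypoxic and 4384 CPM in control libraries). The general capillary sum had a ratio of 0.516 and was not used for scaling, so nothing is read on cell shares. Hilpda stood at 369 ± 192 counts per 10000 endothelial marker counts in hypoxic libraries and 1318 ± 164 in controls (SD, n = 4 each), and Mgll at 1115 ± 289 in hypoxic libraries and 374 ± 98.9 in controls. Neither overlapped between the groups. Gpihbp1 stood at 891 ± 151 in hypoxic libraries and 874 ± 162 in controls.

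Adipocytes, which are rich in most of these transcripts, were looked for by 10 markers. Adipoq, Plin1, Lep, Retn and Adrb3 had 0 counts in all 8 libraries. Outside the rule for named genes, Cidec had 706 counts in hypoxic library 4 and Cfd 464 in hypoxic library 2. Both had 0 counts in the other hypoxic libraries. In the controls Cidec had 0 to 2 counts and Cfd 0, and neither passed the expression filter. The list summed to 224 to 471 CPM in hypoxic libraries and 197 to 242 CPM in controls (exact permutation p = 0.0571, adjusted p = 0.0857), most of it Lipe, which is also on the list of droplet genes. Macrophages also carry Plin2, Fabp5 and Lpl. Their 13 markers in the tables summed to 165 to 618 CPM in hypoxic libraries and 80.7 to 170.1 CPM in controls (exact permutation p = 0.0571, adjusted p = 0.0857), highest in hypoxic library 2, where Fabp5 had 0 counts and Plin2 its highest level. Chil3, the most abundant, was at 67.4 ± 52.8 CPM in hypoxic and 31.7 ± 33.6 CPM in control libraries. Alveolar type 2 markers summed to 2095 to 4148 CPM in the hypoxic group and 960 to 1357 CPM in the controls (exact permutation p = 0.0286, adjusted p = 0.0857), with Sftpc at 1308 ± 349 CPM in hypoxic and 476 ± 73.2 CPM in control libraries. Sftpc had an edgeR adjusted p of 0.313 and was called by DESeq2, by limma-voom and by edgeR without a low-count filter (lowest adjusted p = 3.29e-06). Fibroblast markers, which include those of lipid-storing fibroblasts, summed to 1169.7 to 10379.5 CPM in hypoxic and 774 to 992 CPM in control libraries, without overlap (exact permutation p = 0.0286, adjusted p = 0.0857). Gsn, the most abundant of them, was at 2679 ± 3707 CPM in hypoxic and 322 ± 108 CPM in control libraries. It had an edgeR adjusted p of 0.346 and was called by DESeq2 and by edgeR without a low-count filter (lowest adjusted p = 2.02e-06). Hypoxic library 4, at the top of the fibroblast sum, is the library with the lowest Lpl, Gpihbp1, Cd36 and Pnpla2. Smooth muscle and pericyte markers summed to 89.9 to 545 CPM in hypoxic libraries and 60.0 to 159 CPM in controls (exact permutation p = 0.171, adjusted p = 0.193), with Myh11 at 195 ± 218 CPM in hypoxic and 27.0 ± 27.5 CPM in control libraries. Cardiomyocyte markers, with Nppa and Pln at 0 throughout, summed to 23.5 to 330.02 CPM in hypoxic and 2.93 to 47.7 CPM in control libraries (exact permutation p = 0.0571, adjusted p = 0.0857). Myh6 was at 137 ± 139 CPM in hypoxic and 4.18 ± 5.31 CPM in control libraries. Both sums were highest in hypoxic library 4. The tested markers of most of these lists went both ways. Those higher and lower numbered 1 and 2 for adipocytes, 7 and 3 for fibroblasts, and 1 and 1 for cardiomyocytes. They numbered 3 and 2 for smooth muscle and pericytes, 11 and 2 for alveolar type 2 cells, and 6 and 0 for macrophages. The part of these cells in the levels of the 10 genes was not tested.

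Other genes of the same pathways were taken from 6 lists with 136 genes, of which 71 were tested. EdgeR, which did not call Sox17 either, called 0 of the 71 at an adjusted p under 0.05, and 5 had an unadjusted p under 0.05. Of the 71, 37 were higher and 34 lower, with a median log2 fold change of 0.06 beside −0.01 over all genes tested. Limma-voom called 1 of the 71 (Epas1 lower). DESeq2, over its wider set of genes, called Bnip3 (higher) and Foxo1 (lower) of the 71, and outside them Cebpa and Lipa (both lower).

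Genes of the droplet and of triglyceride synthesis showed no shared direction, with 8 higher and 7 lower among 15 tested (median log2 fold change 0.24). Lipe, hormone-sensitive lipase, which acts between PNPLA2 and MGLL, had 294, 158, 429 and 290.1 CPM in hypoxic libraries and 165, 169.9, 176 and 183 CPM in controls. Hypoxic libraries 1, 3 and 4 lay above the controls and library 2 below them (log2 fold change 0.80, edgeR adjusted p = 1.00). Lpin2, a phosphatidate phosphatase gene, was at 309 ± 207 CPM in hypoxic and 276 ± 95.9 CPM in control libraries. Agpat3, an acyltransferase gene, was at 34.1 ± 37.1 CPM in hypoxic and 81.3 ± 52.8 CPM in control libraries (log2 fold change −1.22, edgeR adjusted p = 1.00). Lipa, the gene of lysosomal acid lipase, did not pass the expression filter and is named because DESeq2 called it. It had 5, 0, 4 and 0 counts in the hypoxic libraries and 670, 143, 4 and 484 counts in the controls, with control library 3 among the hypoxic values. Its DESeq2 adjusted p of 0.00627 comes beside fewer genes detected in the hypoxic libraries, whose part was not tested.

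Partners of lipoprotein lipase numbered 14 tested, 8 higher and 6 lower (median log2 fold change 0.34). Apoe, which encodes a ligand of lipoprotein receptors, had 278 ± 136 CPM in hypoxic and 111 ± 61.5 CPM in control libraries (log2 fold change 1.32, SE 0.51, edgeR adjusted p = 0.687). Scarb1, the receptor gene for high-density lipoprotein, was at 139 ± 39.7 CPM in hypoxic and 167 ± 62.0 CPM in control libraries. Furin, whose protease can cleave and inactivate the lipase, was at 48.0 ± 46.5 CPM in hypoxic libraries and 118 ± 32.4 CPM in controls (log2 fold change −1.30, edgeR adjusted p = 1.00). Angptl4, an inhibitor of the lipase, is outside the rule for named genes. It had 0, 0, 291 and 0 counts in hypoxic libraries and 344, 2, 349 and 163 counts in controls.

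Of 21 other genes of fatty acid uptake, 15 had a count in some library but only 6 passed the expression filter (3 higher, 3 lower). The most abundant was Dbi, the acyl-CoA-binding protein gene, at 172 ± 53.5 CPM in hypoxic and 232 ± 80.3 CPM in control libraries. Acsl5, which encodes an enzyme that activates fatty acids, was at 132 ± 65.5 CPM in hypoxic and 61.6 ± 29.3 CPM in control libraries (log2 fold change 1.11, edgeR adjusted p = 1.00). Of the other genes of the Fabp family on that list, Fabp1 alone passed the filter, at 2.52 ± 2.84 CPM in hypoxic and 3.88 ± 5.43 CPM in control libraries. It is named although the rule for named genes does not take it.

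Transcription factors and signals known to act on fatty acid handling had 6 members higher and 8 lower of 14 tested. Epas1, the gene of the hypoxia-inducible factor HIF-2α, had 2994, 2850, 1229 and 1162 CPM in hypoxic libraries, against 4040.4, 3489.6, 3844 and 4855 CPM in controls, without overlap (log2 fold change −0.97, SE 0.35, edgeR adjusted p = 0.594). Foxo1, a transcription factor gene, had 116, 127, 32.3 and 116 CPM in hypoxic libraries and 288, 206, 373 and 258 CPM in controls, again without overlap (log2 fold change −1.53, SE 0.48, edgeR adjusted p = 0.386). Alternatives gave Epas1 adjusted p-values of 0.0473 (limma-voom) to 1.00 and Foxo1 ones of 0.0398 (DESeq2) to 0.895. Cebpa, an adipogenic transcription factor gene named because DESeq2 called it (adjusted p = 0.000249), did not pass the filter. It had 1, 2, 3 and 1 counts in hypoxic libraries and 253, 5, 452 and 415 counts in controls, control library 2 being close to the hypoxic values. The VEGF receptor gene Flt1 was at 1170.1 ± 283 CPM in hypoxic and 898 ± 151 CPM in control libraries, and the co-receptor gene Nrp1 at 1251 ± 635 CPM in hypoxic and 1610.3 ± 139 CPM in control libraries.

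Of the other genes that handle monoacylglycerols and their products, 3 of 12 were tested. Abhd16a, a lipase gene, was at 187 ± 199 CPM in hypoxic and 147 ± 34.6 CPM in control libraries, and the cyclooxygenase gene Ptgs1 at 169 ± 141 CPM in hypoxic and 187 ± 137 CPM in control libraries. The cannabinoid receptor gene Cnr1, outside the rule for named genes, had 0 counts in all 8 libraries.

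Targets of hypoxia-inducible factors other than Hilpda had 11 members higher and 8 lower of 19 tested, with a median log2 fold change of 0.54, and edgeR called 0 of them. Bnip3, a mitophagy receptor gene, had 212, 219, 389.6 and 355 CPM in hypoxic libraries and 30.4, 61.2, 68.0 and 133 CPM in controls, without overlap (log2 fold change 2.05, SE 0.52, edgeR adjusted p = 0.346). Aldoa, a glycolysis gene, was at 684 ± 244 CPM in hypoxic libraries and 383 ± 91.3 CPM in controls (log2 fold change 0.87, edgeR adjusted p = 0.800). Ddit4, an inhibitor of mTOR signalling, stood at 303 ± 59.2 CPM in hypoxic and 344 ± 100.5 CPM in control libraries (log2 fold change −0.16). Egln1, an oxygen-sensing prolyl hydroxylase gene, stood at 36.1 ± 61.3 CPM in hypoxic and 99.5 ± 64.8 CPM in control libraries (log2 fold change −1.47). The list thus held genes on both sides of 0, where 50.4% of all genes tested were below 0. Ldha, outside the rule for named genes, was at 162 ± 70.5 CPM in hypoxic and 82.8 ± 8.17 CPM in control libraries. Bnip3 and Ldha, both higher, were the 2 tested genes of the list without overlap, where 6.59% of all genes tested had none. The 8 lower genes all overlapped between the groups.

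**Figure D5:**
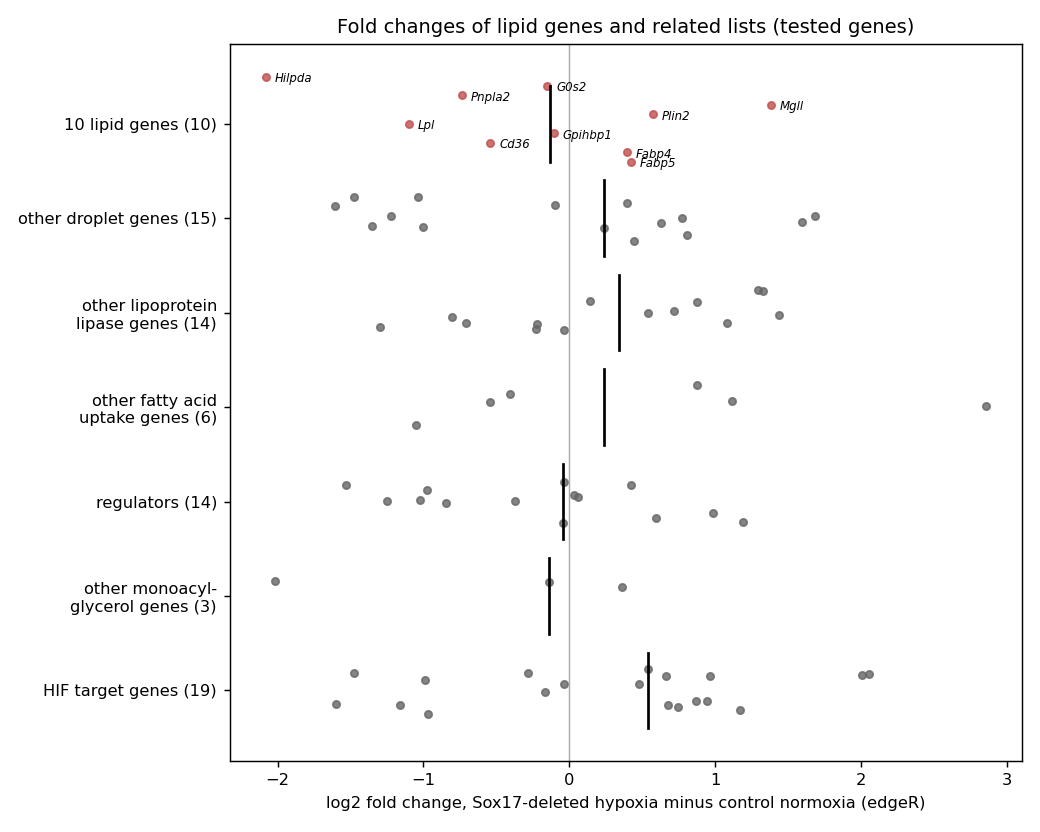
Log2 fold change (Sox17-deleted hypoxia minus control normoxia, edgeR) of the 10 lipid genes (red, named) and of the tested genes of 6 related lists (grey), with the number of genes in brackets and the median as a black bar. The 10 genes run from −2.08 for Hilpda to 1.38 for Mgll, and the list medians lie between −0.14 and 0.54.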

How the data were processed

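Ribosome-bound RNA of lung endothelium was measured in 8 libraries with a QuantSeq 3′ mRNA kit, per the labels' protocols. The authors deposited raw counts, whole numbers listed by gene symbol; Bowtie2, bedtools and the build mm10 are named, per the submitters' processing notes, without versions. Handling of strand, duplicates and reads with several matches is not stated in the labels or notes, and it can change genes with copies or overlaps. Rows sharing a symbol were summed (44), and 0 columns of per-sample values were left unused.

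CPM are counts per 1000000 of the library total. All genes that passed filterByExpr (8282) were fitted with edgeR 4.0.16 in R 4.3.3 (TMM factors, group alone, quasi-likelihood F test, Benjamini-Hochberg adjustment, adjusted p under 0.05). The standard error is the log2 fold change divided by the root of F. Alternatives used DESeq2 1.42.0 (genes with any count, its own filtering), limma 3.58.1, other factors and filters, left-out libraries and a replicate block. Marker sums were compared by two-sided exact permutation tests in scipy 1.17.1 and adjusted over 9 lists. Transcript ends were compared with blastn 2.17.0, and positions come from GENCODE M21. The fit was tested on simulated data with known changes and equal spread in both groups. The hypoxic libraries spread more than the controls, so that test does not show how well changes are found here.

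The 10 genes and all lists were chosen with earlier results of these data known. Beside the 10 genes, the text names, from each pathway list, called genes, the 2 most abundant, and the highest and lowest fold change among those averaging 50 CPM or more, and from each marker list the most abundant gene; exceptions are marked in the text. Likeness candidates left out sex-linked and predicted genes. Replicates share numbers between groups, but no label ties a number to anything shared, so libraries were not paired. P-values reflect only how these libraries vary, and part of that may be technical; counting error limits values near 3 counts.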

Additional observations from a re-analysis of the deposited data

Results flagged for a closer look

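Single libraries stood far from the other 3 of their group in 8 of 98 groups of values checked (Dixon's gap test at the 95% level, where chance alone flags about 1 group in 20). Among the lipid genes, G0s2 reached 37.36 CPM in control library 4, against 0 to 3.60 CPM in the other controls. Sox17 was at 36.63 CPM in Sox17-deleted hypoxic library 1, against 0.857 to 3.67 CPM in the other hypoxic libraries.

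Among list genes, Foxo1 was at 32.28 CPM in hypoxic library 3, against 116 to 127 CPM in the others of its group. Egln1 reached 127.96 CPM in hypoxic library 4, against 3.18 to 8.52 CPM. In the same library Gsn, a fibroblast marker that encodes an actin-severing protein, reached 8208 CPM, against 469 to 1384 CPM. In control library 3, Agpat3 was at 159.5 CPM against 49.4 to 66.4 CPM in the other controls, and Dbi at 352.3 CPM against 182 to 200.2 CPM. Myh11, a smooth muscle myosin gene, was at 68.07 CPM in control library 4, against 10.5 to 15.1 CPM in the other controls.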

How the results depend on the processing

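Hilpda stayed lower in 19 of 19 alternatives (log2 fold change −2.38 to −1.80) and Mgll higher in 19 of 19 (1.17 to 1.57); Pnpla2, Lpl, Cd36 and Plin2 kept their sign in all of theirs, while G0s2, Gpihbp1, Fabp4 and Fabp5 changed sign in some. G0s2 was −4.04 without hypoxic libraries 1 and 4, a choice made after seeing the data. Of the 10 genes, 5 to 7 were lower over the alternatives that fitted them all, and 4 when scaled to summed endothelial markers, also chosen after seeing the data; 4 of the 10 could not be fitted with the filter at 7 on the log2 scale. No overlap between groups was seen for 2 of the 10 genes, also with TMM-scaled totals, and for 2 to 4 with a library left out, where 8.37% to 14.0% of all genes tested had none; 4 and 14.0% are without hypoxic library 1.

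EdgeR called 0 genes. Counts of called genes were 473 with DESeq2 (238 among the genes edgeR tested), 44 with limma-voom, 17 without a low-count filter, 4 among genes whose mean CPM reached 7 on the log2 scale, 1 with hypoxic libraries 2 to 4 summed, and 0 to 5 with a library left out (5 without hypoxic library 1). Unadjusted p under 0.05 was met by 424 genes, and by 1464 with DESeq2, 1106 with limma-voom, 1605 without a filter, 217 of those reaching 7, 1184 without hypoxic libraries 1 and 4, and 381 to 973 with a library left out. Pathway genes called were 4 with DESeq2, 1 with limma-voom and 0 with a library left out. The cause of these differences was not tested. With the replicate number as a block, 0 genes were called and 428 had an unadjusted p under 0.05; same-numbered libraries deviated together at r = −0.0176 to 0.0227. No marker sum passed an adjusted p of 0.05, and with a library left out the smallest exact p is 0.0571. Depth limits values near the floor of 3 counts, as in G0s2.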
